A study of Mus musculus with 6 samples.

Results

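The 8 genes described here encode calcium buffers and plasma membrane calcium pumps of the cochlea: the EF-hand buffers Calb1 (calbindin-D28k), Calb2 (calretinin), S100a1 and S100b, and the pumps Atp2b1, Atp2b2, Atp2b3 and Atp2b4. They are listed by name for their function, and are 8 of the 25823 genes to which the transcripts of the table were matched by their GENCODE M21 annotation. The study compared the cochlea of C57BL/6 mice at 1 month of age (young) with that at 12 months of age (old), to describe RNA in age-related hearing loss. All mice were of 1 strain and were kept without a treatment, and no engineered allele or agent is named in the labels. Each group had 3 samples, and each sample was RNA from mixed cochlear tissue of 3 mice, dissected as basilar membrane per the labels. A p-value therefore measures the spread between pools of mice.

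Calcium enters hair cells through the mechanotransduction channels of the stereocilia and through the voltage-gated channels that trigger transmitter release, and it enters spiral ganglion neurons with each action potential. EF-hand proteins bind this calcium within the cytosol, and the plasma membrane calcium ATPases, which the Atp2b genes encode, pump it out of the cell. In the inner ear, Atp2b2 is the pump of the stereocilia, and mice that lack its function are deaf and unbalanced.

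Values are FPKM (fragments per kilobase of transcript, scaled to sequencing depth), which correct for transcript length, summed over the transcripts of a gene. Most low FPKM values of genes with 1 transcript were close to whole multiples of 1 fragment, and the depth estimated from them was 12570000 to 15670000 fragments per sample. All 15 hair cell markers, 11 neuronal markers and 10 Schwann cell and myelin markers were above 0 in each of the 6 samples, as were the markers of bone, macrophages and erythrocytes, so that the samples hold more than the sensory tissue. Young replicate 3 stood apart from the other young samples, with a summed neuronal marker level of 629 FPKM against 975 and 1237 FPKM. In the limma test, 3.68% of all genes were lower in old mice at an adjusted p below 0.05. Of the 15 hair cell markers 5 were lower (summed level 160 to 178 FPKM in young and 129 to 133 FPKM in old samples). Much of this sum was Myo6, at 79.5 to 86.5 FPKM in young and 72.8 to 78.2 FPKM in old samples. Of the 11 neuronal markers 6 were lower (629 to 1237 and 431 to 471 FPKM), and of the 10 Schwann cell and myelin markers 5 were lower (848 to 1296 and 723 to 754 FPKM). Of the 8 bone markers 2 were lower (75.9 to 320 and 43.1 to 64.8 FPKM), with the highest sum in young replicate 1. The part of bone in the results was not tested.

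The transcripts of Atp2b2 differ in where they start, and Atp2b2-202 differs from Atp2b2-201 in a stretch of its coding sequence. Both are shown because the results by transcript turn on them. Atp2b2 lies on the minus strand of chromosome 6 (chr6:113743831-114042613, GRCm38). Of the 4 Atp2b2 transcripts in the table, Atp2b2-202 alone holds 3 coding exons, exons 8 to 10, between exons that the others share. Together they span 135 bases, or 45 codons, at the site known as splice site A, in the first large cytosolic loop of the pump, and inclusion of all 3 exons gives the form known as w. These exons alone do not show which full form of the pump hair cell stereocilia hold. The table held 4 of the 8 annotated Atp2b2 transcripts. The exons, from 5′ to 3′ on the minus strand, are the following.
Atp2b2-202 exon 8 (chr6:113803747-113803779): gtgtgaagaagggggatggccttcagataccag
Atp2b2-202 exon 9 (chr6:113802486-113802545): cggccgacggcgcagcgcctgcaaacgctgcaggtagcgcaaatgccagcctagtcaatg
Atp2b2-202 exon 10 (chr6:113797110-113797151): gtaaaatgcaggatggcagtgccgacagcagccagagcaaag

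The RefSeq promoter table (GRCm38.p6) lists 3 start sites for Atp2b2 that lie at or near the first bases of these transcripts. The most upstream one is 54 bases before the start of Atp2b2-203, the middle one is the first base of Atp2b2-202, and the most downstream one is the first base of both Atp2b2-201 and Atp2b2-208. The 100 bases before each start are printed with each match to GGGCGG, on either strand, in capitals.
Upstream of Atp2b2-203 (chr6:114042081-114042180): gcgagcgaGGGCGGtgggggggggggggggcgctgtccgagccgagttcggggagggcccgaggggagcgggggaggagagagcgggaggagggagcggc
Upstream of Atp2b2-202 (chr6:113934682-113934781): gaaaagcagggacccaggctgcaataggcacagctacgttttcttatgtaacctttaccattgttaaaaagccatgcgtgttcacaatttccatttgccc
Upstream of Atp2b2-201 and Atp2b2-208 (chr6:113891540-113891639): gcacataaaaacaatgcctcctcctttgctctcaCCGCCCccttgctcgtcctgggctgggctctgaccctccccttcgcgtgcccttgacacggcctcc
Over the 250 bases before the start, the most upstream window held 16 CpG pairs and 69.6% G or C, and the other windows held 6 CpG pairs each with 52% and 55.6% G or C. GGGCGG was found once in the windows of Atp2b2-203 and Atp2b2-201 and not in that of Atp2b2-202, and neither TATAAA nor CCAAT, searched on both strands, was in any of the 3 windows. Among 32851 mouse promoters in the same table, 32.7% held GGGCGG, 12.4% TATAAA and 33.8% CCAAT.

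Calb2 and Atp2b2 fell with age, and no gene of the 8 rose past the threshold (limma adjusted p below 0.05 over 19649 genes). Among all genes tested, 9.09% passed the threshold in either direction, with 3.68% lower and 5.41% higher at 12 months. Without adjustment of p, 4 of the 8 genes were lower and 1 was higher, where 13% and 14.5% of all genes were (27.5% together). The groups did not overlap for the same 5 genes, 4 lower and 1 higher, where they did not overlap for 16% of all genes in the lower and 17.5% in the higher direction (33.5% together). The median log2 change was -0.16 over the 8 genes and 0.01 over all genes. All log2 changes are on the scale of log2(FPKM + 0.1).

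**Figure D1:**
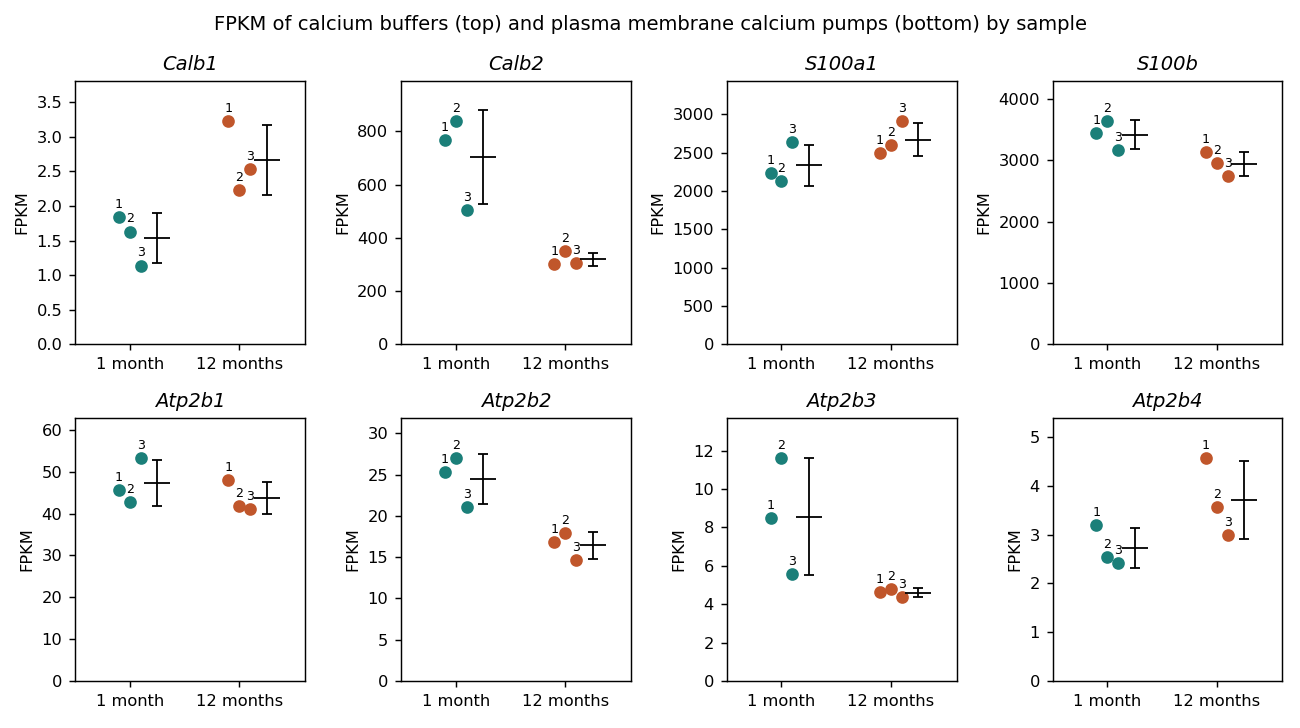
FPKM of each gene (vertical axis, from 0, with its own scale per gene) in 3 young samples (1 month, green) and 3 old samples (12 months, orange), with replicate numbers beside the points and the mean ± SD as black bars. The old points lie below all young points for Calb2, S100b, Atp2b2 and Atp2b3, above them for Calb1, and among them for S100a1, Atp2b1 and Atp2b4.

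Calb2, the buffer of inner hair cells and of many spiral ganglion neurons, stood at 766, 838 and 504 FPKM in the 3 young samples. It stood at 303, 349 and 306 FPKM in the 3 old samples, each below the lowest young sample. The mean fell by 54.6%, from 703 ± 176 to 319 ± 25.6 FPKM (SD, n = 3 each), with a log2 change of -1.11 (SE 0.18, 95% interval -1.53 to -0.69, limma adjusted p = 0.0207). In bulk tissue, fewer cells of a type and less RNA per cell cannot be told apart. Without young replicate 3, the young sample nearest to the old ones, the adjusted p was 0.0048. Without any 1 of the other 5 samples it was between 0.0519 and 0.0674, so that the call was lost, with log2 changes of -0.96 to -1.17. Calb2 is on the minus strand of chromosome 8 (chr8:110137502-110168210).

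Calb1, its close relative and the buffer best known from cerebellar Purkinje cells and from hair cells, was the lowest of the 8 genes. Its values were 1.83, 1.63 and 1.14 FPKM in young and 3.23, 2.23 and 2.54 FPKM in old samples, which corresponds to about 56 to 160 fragments per sample. The old samples were all above the young ones, with means of 2.67 ± 0.511 and 1.53 ± 0.357 FPKM (SD, n = 3). The log2 difference of 0.77 (SE 0.25, 95% interval 0.19 to 1.35) did not pass the threshold (limma adjusted p = 0.0970), and the exact permutation test gave p = 0.1, the smallest that 3 samples against 3 allow.

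Calb2 and Calb1 were also set against each other within each sample. Calb2 was 456-fold above Calb1 in young samples and 121-fold above it in old samples as geometric means. The log2 ratio of Calb2 to Calb1 was 8.71, 9.01 and 8.79 in young and 6.55, 7.29 and 6.91 in old samples, without overlap (difference -1.92, exact permutation test, two-sided p = 0.1). Such a ratio is not altered by a single scaling factor per sample.

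S100b and S100a1 were by far the most abundant of the 8 genes. S100b, the calcium sensor of glia, Schwann cells and supporting cells, had 3453, 3642 and 3178 FPKM in young samples and 3135, 2959 and 2743 FPKM in old samples. The old samples were all lower, the nearest by a small step, and the means were 3424 ± 233 and 2946 ± 197 FPKM (SD, n = 3). The log2 difference was -0.22 (SE 0.09, 95% interval -0.43 to -0.01), with a limma adjusted p of 0.168. After quantile normalization, which sets the samples to 1 common distribution, it was -0.35 with an adjusted p of 0.0389. The span of S100b overlaps that of Dip2a on the opposite strand. Atp2b2 overlaps Gm44167 on the same strand and Gm15082 and Gm15083 on the opposite strand. Atp2b4 overlaps Mir6903 and Gm37368 on the same strand. The library kit was directional, but the strand setting used in counting is not given in the sources used here.

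S100a1, an S100 protein best known from heart muscle and also found in the organ of Corti, had 2229, 2134 and 2641 FPKM in young and 2497, 2604 and 2910 FPKM in old samples. These ranges overlapped, with means of 2334 ± 269 and 2670 ± 215 FPKM (SD, n = 3). The log2 difference of 0.20 (SE 0.11, 95% interval -0.05 to 0.45, limma adjusted p = 0.277) was smaller than the interval could separate from 0, and after quantile normalization it was -0.07. The log2 ratio of S100b to S100a1 was 0.56 ± 0.26 in young and 0.14 ± 0.21 in old samples (SD, n = 3, exact permutation test p = 0.2, overlapping). S100a1-201, which holds nearly all of the S100a1 signal, is 677 bases long. Low FPKM values of longer genes with 1 transcript were closest to whole fragments when about 280 to 300 bases were taken off the length. This reduction was estimated here and is not given in the sources used. If it also holds for S100a1-201, its FPKM depends more on the reduction than do those of longer transcripts.

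Summed over the 4 buffers, the level was 6324 to 6616 FPKM in young and 5913 to 5961 FPKM in old samples, without overlap. Most of this sum is S100a1 and S100b.

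**Figure D2:**
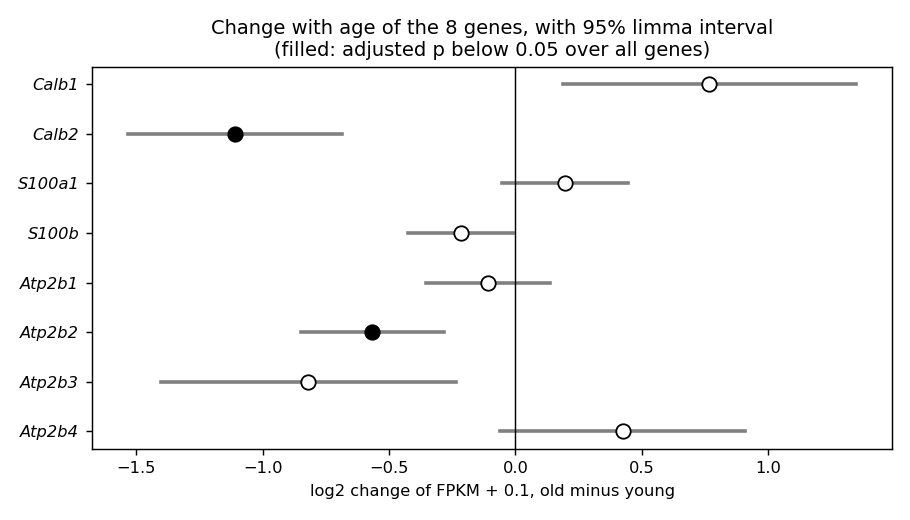
Log2 change of FPKM + 0.1, old minus young (horizontal axis), of each of the 8 genes with its 95% interval from limma (3 samples per group), and filled points for an adjusted p below 0.05. Calb2 at -1.11 and Atp2b2 at -0.57 are filled, and the intervals of S100a1, Atp2b1 and Atp2b4 hold 0.

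Among the pumps, Atp2b2 fell with age, and the other 3 did not pass the threshold. The sum of the 4 pumps was 82.4 to 83.9 FPKM in young and 63.2 to 74.1 FPKM in old samples.

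Atp2b2, the stereocilia pump, had 25.3, 27.0 and 21.1 FPKM in young samples and 16.8, 17.9 and 14.7 FPKM in old samples. Each old sample was below each young one. The mean fell by 32.8%, from 24.5 ± 3.03 to 16.5 ± 1.65 FPKM (SD, n = 3), with a log2 change of -0.57 (SE 0.12, 95% interval -0.85 to -0.28, limma adjusted p = 0.0344). Without young replicate 3 the adjusted p was 0.0222, and without any 1 of the other 5 samples it was between 0.0847 and 0.105, so that the call was lost, with log2 changes of -0.49 to -0.63. Over all 16 alternatives tried, the adjusted p of Atp2b2 ranged from 0.0222 to 0.191 and that of Calb2 from 0.0048 to 0.0674, with log2 changes below 0 in each.

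Atp2b3, the pump of neurons, had 8.49, 11.6 and 5.55 FPKM in young and 4.65, 4.79 and 4.35 FPKM in old samples. The old samples were close to each other and below all young samples, while young replicate 3 was nearest to them. The means were 8.55 ± 3.03 and 4.60 ± 0.225 FPKM (SD, n = 3), and the log2 difference of -0.82 (SE 0.25, 95% interval -1.40 to -0.24) did not pass the threshold (limma adjusted p = 0.0834). Without young replicate 3 it was -1.10 with an adjusted p of 0.0182. Atp2b3 lies on the plus strand of chromosome X (chrX:73503086-73571005).

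Atp2b1, the widely expressed pump that is also found in the basolateral membrane of hair cells, was the most abundant pump. It had 45.6, 42.7 and 53.3 FPKM in young and 48.0, 41.8 and 41.2 FPKM in old samples, with overlapping groups. The log2 difference of -0.11 (SE 0.10) had a 95% interval of -0.35 to 0.14 (limma adjusted p = 0.540). The log2 ratio of Atp2b2 to Atp2b1 was -0.95 ± 0.35 in young and -1.41 ± 0.16 in old samples (SD, n = 3, exact permutation test p = 0.2).

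Atp2b4, the pump best known from red blood cells and sperm, had 3.19, 2.54 and 2.43 FPKM in young and 4.57, 3.56 and 3.00 FPKM in old samples. The lowest old sample lay below the highest young one. The log2 difference of 0.42 (SE 0.21) had a 95% interval of -0.06 to 0.91 (limma adjusted p = 0.235). It was 0.27 without old replicate 1 and 0.02 with the most abundant transcript alone.

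The order of the levels was the same at both ages, from S100b through S100a1, Calb2, Atp2b1, Atp2b2, Atp2b3 and Atp2b4 down to Calb1. In young samples no neighbours in this order overlapped. In old samples 3 pairs of neighbours overlapped, S100b with S100a1, Atp2b3 with Atp2b4, and Atp2b4 with Calb1. The longest run of identical bases was 56 between transcripts of 2 pumps (Atp2b2 and Atp2b3) and 14 between those of 2 buffers (Calb2 and S100b).

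The table held 20 of the 38 annotated transcripts of the 8 genes, all protein coding, and 17 of them had a mean of at least 0.1 FPKM and were tested. None passed an adjusted p of 0.05 in limma over 38764 transcripts, where 0.748% of all transcripts did, 0.549% higher and 0.199% lower. With no adjustment of p, 6 were lower and 1 was higher at the same threshold, where 7.98% and 9.05% of all transcripts were. The groups did not overlap for 7 in the lower and 1 in the higher direction, where 12% and 12.6% of all transcripts did not (24.6% together). The smallest adjusted p was 0.0617, for Calb2-201, which held almost all of the Calb2 signal. The split between transcripts of a gene is an estimate made by the authors' software from reads that are mostly shared.

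Atp2b2-201 and Atp2b2-202, which start at different sites and differ by the 3 exons of the w form, had almost the same level in young mice, 10.4 ± 1.07 and 10.4 ± 1.36 FPKM (SD, n = 3). Atp2b2-201 had 9.71, 11.7 and 9.96 FPKM in young samples and 6.38, 6.85 and 6.59 FPKM in old samples, without overlap, with a log2 difference of -0.65 (SE 0.12, limma adjusted p = 0.0663). Atp2b2-202 had 12.0, 10.01 and 9.36 FPKM in young and 8.42, 9.19 and 6.65 FPKM in old samples, also without overlap but with the nearest samples of both ages close to each other, and with a log2 difference of -0.37 (SE 0.16, adjusted p = 0.314). The share of Atp2b2 FPKM held by Atp2b2-202 was 47.3%, 37.0% and 44.3% in young and 50.1%, 51.3% and 45.3% in old samples. These shares overlapped (exact permutation test p = 0.2), so that a shift between the forms was not detectable with 3 samples per group.

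The other Atp2b2 transcripts contributed less. Atp2b2-203, from the most upstream start, had 3.01, 4.55 and 1.47 FPKM in young and 1.81, 1.86 and 1.43 FPKM in old samples, with overlap. Atp2b2-208, which shares its start with Atp2b2-201, had 0.60, 0.79 and 0.33 FPKM in young samples, 0.18 FPKM in old replicate 1 and less than 0.0001 FPKM in the other two old samples. Its log2 difference was -2.19 (SE 0.70, adjusted p = 0.184).

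**Figure D3:**
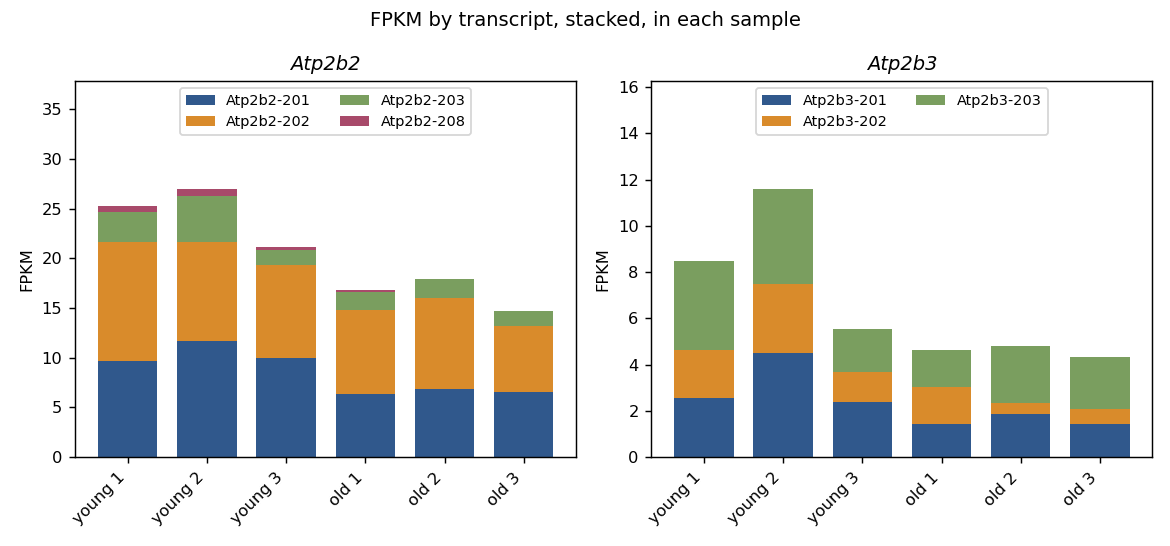
FPKM of the transcripts of Atp2b2 (left) and Atp2b3 (right), stacked in each of the 6 samples, with the vertical axes from 0. For Atp2b2 both large segments, Atp2b2-201 and Atp2b2-202, are shorter in each old sample than in each young one, and for Atp2b3 young replicate 2 is tallest at 11.6 FPKM.

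The 3 Atp2b3 transcripts share their start and differ at the 3′ end, where the tail of the pump that binds calmodulin is encoded. Atp2b3-203 holds an additional coding exon of 154 bases, exon 21, which Atp2b3-201 and Atp2b3-202 lack and which shifts the reading frame, so that its coding length is 3519 bases against 3660 bases in Atp2b3-202. The exon is printed because Atp2b3-203 had the highest mean of the 3 transcripts, although Atp2b3-201 was above it in young replicates 2 and 3.
Atp2b3-203 exon 21 (chrX:73559864-73560017, plus strand): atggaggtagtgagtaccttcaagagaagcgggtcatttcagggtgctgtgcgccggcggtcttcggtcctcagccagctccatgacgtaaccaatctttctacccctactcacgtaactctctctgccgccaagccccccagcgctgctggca
Atp2b3-203 held 45.6%, 35.6% and 34.0% of Atp2b3 FPKM in young and 34.6%, 51.0% and 52.4% in old samples, without a separation of the ages (exact permutation test p = 0.3). Atp2b3-201 had 2.55, 4.50 and 2.38 FPKM in young and 1.45, 1.86 and 1.44 FPKM in old samples, without overlap (log2 difference -0.90, SE 0.31, limma adjusted p = 0.215).

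For S100a1, the 2 transcripts differed in sign. S100a1-202, which is annotated with a shorter coding sequence of 189 bases, had 42.7, 33.4 and 38.7 FPKM in young and 30.6, 27.3 and 27.3 FPKM in old samples. All old samples were lower, with a log2 difference of -0.42 (SE 0.11, unadjusted p = 0.0062, limma adjusted p = 0.116). The share of S100a1-201 was accordingly 98.1% to 98.5% in young and 98.8% to 99.1% in old samples, without overlap (exact permutation test p = 0.1). For Atp2b4, the leading transcript Atp2b4-207 held 46.8%, 54.3% and 55.1% in young and 44.8%, 34.0% and 38.9% in old samples, also without overlap (p = 0.1 in the same exact permutation test). Atp2b4-202 held 31.3%, 9.7e-05% and 22.0% in young and 20.6%, 43.8% and 8.99% in old samples. The split between the Atp2b4 transcripts thus varied widely within a group, and a shift between them cannot be read from these shares.

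The 8 genes were next set against the markers of the cell types that use them, as the difference between the log2 level of a gene and the mean log2 level of a marker list in the same sample. The hair cell markers did not change alike. Gfi1 and Chrna9 had log2 changes of -2.05 and -1.50, Myo7a was at 0.002, and Espn was at 0.44, higher in old samples without overlap. Calb2 lay 7.07, 7.50 and 6.46 above the hair cell markers on the log2 scale in young and 6.53, 6.75 and 6.59 in old samples, with overlap (difference -0.38, exact permutation test p = 0.4). Against the same 15 markers, Atp2b2 differed by 0.16 (p = 0.6) and Atp2b3 by -0.10 (p = 0.8), both with overlap in the exact permutation test. These values rested on single samples. Without young replicate 3 they were -0.66 for Calb2, 0.0030 for Atp2b2 and -0.42 for Atp2b3, and without young replicate 2 they were -0.14, 0.33 and 0.26. Without old replicate 2, Atp2b2 differed by 0.10. With the median of the markers Atp2b2 turned to -0.09. With 3 samples per group, a difference between the changes of these 3 genes and that of the hair cell markers was not detectable. Calb1, S100a1, S100b, Atp2b1 and Atp2b4 were all higher relative to the hair cell markers in old samples, by 1.49, 0.92, 0.51, 0.62 and 1.15 on the log2 scale, without overlap (exact permutation test p = 0.1 each).

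Against the 11 neuronal markers, Atp2b3 stayed at almost the same distance, with -1.88, -1.69 and -1.91 in young and -1.78, -1.89 and -1.85 in old samples (difference -0.01, exact permutation test p = 0.9). It followed these markers sample by sample, young replicate 3 included. Calb2 lay at 4.59, 4.47 and 4.57 above the neuronal markers in young and at 4.21, 4.27 and 4.25 in old samples. Here the groups did not overlap, with a difference of -0.30 (exact permutation test p = 0.1) and young replicate 3 beside the other young samples. The markers did not change alike, since Nefl, Nefm and Snap25 had log2 changes of -1.07, -1.30 and -1.19, near or below the -1.11 of Calb2, and Prph had a log2 difference of 0.70. Atp2b2 was higher by 0.24 against the same markers, with overlap (exact permutation test p = 0.3).

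S100b against the 10 Schwann cell and myelin markers was higher by 0.18 in old samples, with overlap (exact permutation test p = 0.3), and Calb2 was lower by 0.71 without overlap (exact permutation test p = 0.1). The parts that hair cells, neurons and Schwann cells had in the differences of the 8 genes were not tested. The comparison with neuronal and Schwann cell markers was added after the values had been seen.

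**Figure D4:**
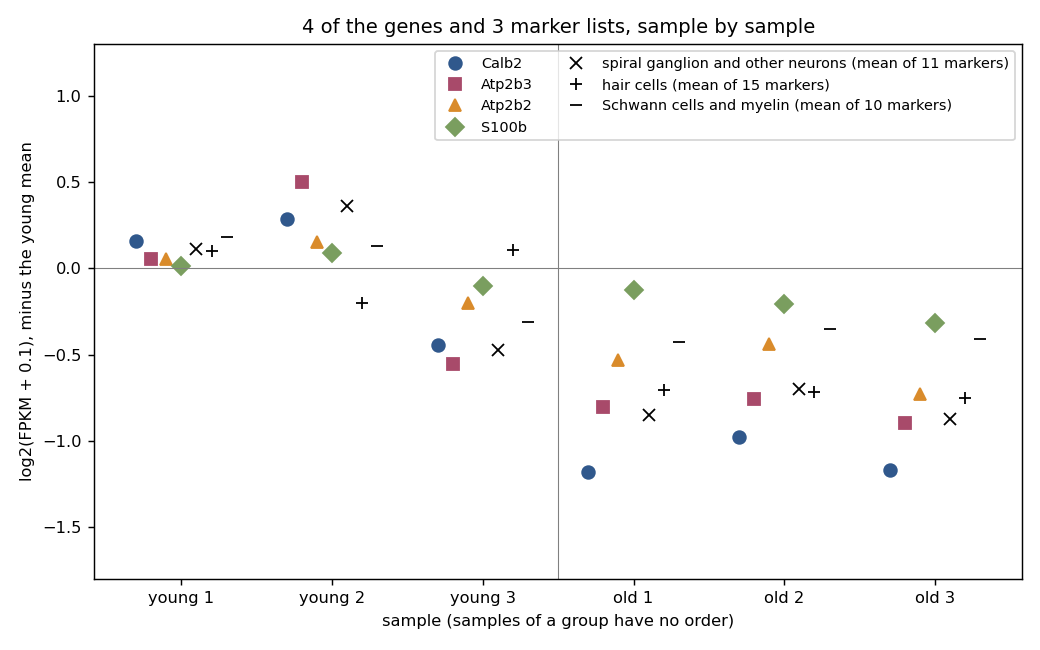
Log2(FPKM + 0.1) minus the mean of the 3 young samples (vertical axis) for Calb2, Atp2b3, Atp2b2 and S100b (coloured) and for the means of 3 marker lists (black) in each of the 6 samples. In young replicate 3, Calb2 and Atp2b3 lie low beside the neuronal markers while the hair cell markers do not, and in all old samples Calb2 is the lowest point.

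Markers of other cells that use these genes were read as well. The 10 supporting cell markers summed to 1510 to 1681 FPKM in young and 1646 to 1788 FPKM in old samples, with 1 lower and 1 higher past the threshold. For brain tissue, which expresses Calb1, Calb2 and Atp2b2, 5 markers of cerebellar and brainstem neurons summed to 28.1 to 50.4 FPKM in young and 21.8 to 22.7 FPKM in old samples. Most of this sum was Slc17a7, at 24.7 to 47.2 FPKM in young and 16.4 to 17.1 FPKM in old samples. Of the 5 markers, 3 were tested. Slc17a7, a vesicular glutamate transporter gene that spiral ganglion neurons also express, fell from 36.2 ± 11.2 to 16.7 ± 0.357 FPKM (SD, n = 3, limma adjusted p = 0.0290). Cbln1, a synaptic organizer of cerebellar granule cells, rose from 1.02 ± 0.281 to 2.73 ± 0.453 FPKM (SD, n = 3, limma adjusted p = 0.0265). Pcp2 of Purkinje cells was at 2.14 to 3.04 FPKM with overlap, Gabra6 of granule cells was at 0 FPKM in 5 of 6 samples, and Slc6a5 was at no more than 0.045 FPKM. The 6 central glia markers summed to 36.7 to 49.1 FPKM in young and 33.5 to 36.7 FPKM in old samples, with overlap. Most of this sum was Slc1a2, at 26.0 to 37.6 FPKM in young and 24.9 to 27.2 FPKM in old samples. Aqp4 was next, at 7.85 to 10.3 FPKM in young and 6.04 to 7.30 FPKM in old samples. None of the 5 central glia markers tested passed the threshold. Mog was at 1.54 FPKM in young replicate 1 and at no more than 0.403 FPKM in the other samples. The part of brain tissue in the results was not tested. Skeletal muscle markers, of interest for S100a1, summed to 7.38 to 11.2 FPKM in young and 8.34 to 27.7 FPKM in old samples. The highest sum was in old replicate 1. The part of muscle in the S100a1 values was not tested.

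The genes with the nearest profile over the 6 samples were named for each of the 8 genes, among 7713 genes with a mean of at least 10 FPKM, by the root mean square difference of the centred log2 values. All of these points share the same 6 libraries, and the likeness is a description. For Calb2 they were Diras1 (0.06), Cplx1 (0.06) and Nefl (0.07), of which Cplx1 is a complexin of synapses and Nefl a neurofilament subunit. For Atp2b3 they were Napb (0.05), Tubb3 (0.06) and Insyn1 (0.07), of which Tubb3 is the neuronal beta-tubulin, and both Nefl and Tubb3 are on the neuronal marker list. For Atp2b2 they were Trappc2, Sept4 and Ppp2r2c, and for S100b Rala, Fnta and the neurotrophin receptor gene Ntrk3. For S100a1 they were Stard10, Cyp2d22 and Colgalt1, for Calb1 Usp53, Ifrd1 and Tctex1d2, for Atp2b1 Rbm33, Apopt1 and the calcium channel subunit gene Cacna2d1, and for Atp2b4 Ggh, AU040320 and Insig1.

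The rest of the calcium pathway was read from 5 lists with 94 genes, of which 86 were tested. Of these, 7 had risen and 8 had fallen by 12 months, together 17.4%, against 9.09% of all genes. Other EF-hand genes fell beside Calb2. Of 26 other EF-hand buffers and sensors tested, 5 were lower and 1 was higher, and the median log2 change was -0.19. The 5 lower became 1 with eBayes without trend, 3 without a filter on low values and 6 with a minimum mean of 1 FPKM. They became 0 without old replicate 2, 2 without young replicate 2 and 7 without young replicate 3. Without young replicate 1, old replicate 1 or old replicate 3, 1 was lower. Pvalb (parvalbumin), a buffer of inner hair cells and neurons, fell from 328 ± 62.8 to 176 ± 15.4 FPKM (SD, n = 3, log2 change -0.89, SE 0.15, limma adjusted p = 0.0207). Ocm (oncomodulin), the buffer of outer hair cells, fell from 135 ± 41.0 to 58.4 ± 11.4 FPKM (-1.18, SE 0.24, adjusted p = 0.0297). The neuronal calcium sensors Ncs1 and Vsnl1 and the potassium channel partner Kcnip1 fell by 1.25, 1.58 and 1.03 on the log2 scale. Efhd1, a mitochondrial EF-hand protein, rose by 0.70 from 57.8 to 93.0 FPKM as group means. The most abundant genes of this list beside Pvalb, the calmodulin genes Calm2 and Calm3, had log2 differences of -0.16 and -0.22 that did not pass the threshold.

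Several other S100 genes rose with age. Of 11 tested, 6 were higher and 0 were lower in limma, where 5.41% and 3.68% of all genes were. The same counts held at an unadjusted p below 0.05, where 14.5% and 13% of all genes were. The median log2 change was 0.48. S100a13 rose from 192 ± 7.52 to 297 ± 25.6 FPKM (SD, n = 3, log2 change 0.62, SE 0.08, limma adjusted p = 0.0118), S100a10 rose by 0.48 and S100a16 by 0.67 on the log2 scale, and these were the most abundant of the list. S100a6, S100a11 and S100a4 rose by 0.67, 0.68 and 1.23 on the log2 scale. All S100 genes tested from this list lie on chromosome 3, as does S100a1, while S100b is on chromosome 10. The same 6 passed after median-of-ratios scaling and after quantile normalization. The count was 1 with eBayes without trend and 3 with a replicate block. It was 0 without old replicate 2, 2 without young replicate 2, 3 without old replicate 3, 4 without young replicate 1 or without old replicate 1, and 5 without young replicate 3. S100a13 and S100a1 start 43 bases apart on opposite strands, with log2 changes of 0.62 and 0.20, whose difference was not tested. S100a8 and S100a9, the calprotectin genes of neutrophils, were at 228 and 159 FPKM in young replicate 1 and at no more than 36.4 and 27.4 FPKM in the other samples. Macrophage markers rose in the same samples, 7 of 8 past the threshold, from 65.2 to 108 FPKM in young to 252 to 327 FPKM in old samples as their sum, and their part in the S100 result was not tested.

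**Figure D5:**
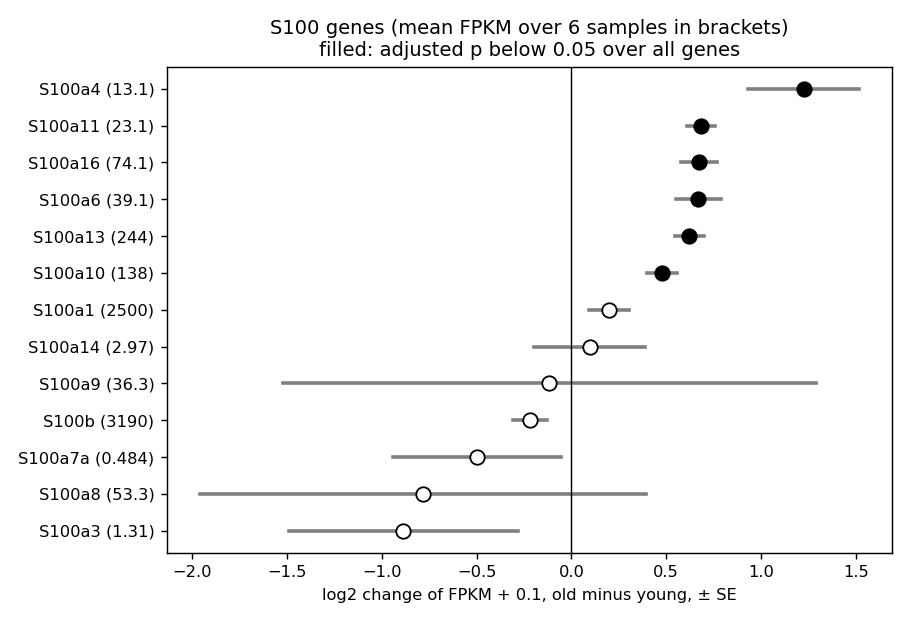
Log2 change of FPKM + 0.1, old minus young (horizontal axis), with its SE for S100a1, S100b and the 11 other S100 genes tested (3 samples per group), ordered by change, with the mean FPKM in brackets and filled points for a limma adjusted p below 0.05. The 6 filled points lie between 0.48 and 1.23, S100a1 at 0.20 and S100b at -0.22.

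The remaining lists cover genes that work beside the pumps, and are read against 3.68% lower and 5.41% higher among all genes. Of 16 exchangers, organelle pumps and pump partners none passed the threshold in limma. At an unadjusted p below 0.05, 1 was higher and 4 were lower, where 14.5% and 13% of all genes were. The most abundant of the 16 were Bsg, Nptn and Atp2a2. Bsg and Nptn, whose products basigin and neuroplastin are subunits of the plasma membrane calcium pumps, had log2 differences of 0.12 and -0.07. The endoplasmic reticulum pump gene Atp2a2 had -0.20. Of 17 store and mitochondrial uptake genes, 1 was lower, Micu3, a regulator of the mitochondrial uniporter, which fell by 0.65 on the log2 scale. Itpr1, Calr and Stim2, the most abundant of these, had log2 differences of -0.16, 0.07 and 0.36 that did not pass. Of 16 voltage-gated calcium channel subunits, 2 were lower, Cacna1e by -0.92 and Cacnb2 by -0.67 on the log2 scale, and the median log2 change was -0.42. Cacna2d1 and Cacnb3, the most abundant subunits, had -0.13 and -0.33.

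The counts over these 5 lists rested on single samples. Without old replicate 2 there were 0 higher and 0 lower, without young replicate 3 there were 7 higher and 12 lower, and without the others between 3 and 4 higher and between 1 and 2 lower. Among all genes, 44 higher and 15 lower passed without old replicate 2, against 1063 and 724 with all samples.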

How the data were processed

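Directional libraries of 3 young and 3 old samples were sequenced as paired ends. The authors aligned the reads to GRCm38, assembled transcripts and deposited FPKM per transcript and sample. The submitters' processing notes name CASAVA 1.8, TopHat2 2.0.9, Cufflinks 2.1.1 and Cuffdiff 2.1.1. The annotation release, the strand setting and the scaling between libraries are not given in the sources used here. One young sample has a misspelled label and was matched to the column of that number. The values were used as deposited, with no further scaling.

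Of 55679 Ensembl transcripts, 55275 were matched to GENCODE M21, 404 were not, and 992 transcripts of the authors' own had no gene name. FPKM values were summed per gene. Depth was estimated from the steps between low values, of which 92.4% to 94.2% per sample were within 0.1 of a whole number of fragments. It covers counting error only and served as a description. The test was limma 3.58.1 in R 4.3.3 (lmFit, eBayes with trend) on log2(FPKM + 0.1) for genes or transcripts with a mean of at least 0.1 FPKM, with age as the only term, Benjamini-Hochberg adjustment over all of them and a threshold of 0.05. The code was tested on simulated data. Ratios, shares and differences to marker lists were compared with two-sided exact permutation tests, whose smallest p is 0.1 here. None of these 3 ratios, 15 shares and 24 differences can pass 0.05 in this design, and their p-values were not adjusted. Python 3.11.15 with numpy 2.4.6, pandas 2.3.3 and matplotlib 3.10.9 was used for tables and plots.

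The 8 genes and all gene and marker lists were chosen with earlier results of these data known. Named beside the 8 genes were, of each calcium list, every gene past the threshold and the 3 of highest mean FPKM, and for each of the 8 genes the 3 nearest profiles. S100a8, S100a9 and the markers given with values were named after their values had been seen. Alternatives changed the pseudocount, the filter, the scaling, the variance trend, the sample weights, a replicate block, each sample left out, the summary of transcripts and the adjustment of p. Exon and upstream sequences come from GENCODE M21 and RefSeq, whose promoter table matched 5 of the 8 genes.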

Additional observations from a re-analysis of the deposited data

How the results depend on the processing

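Log2 changes of the 8 genes kept their sign under all 16 alternatives, except S100a1, whose log2 change was -0.071 after quantile normalization. Calb2 was past the threshold in 10 of the 16 and Atp2b2 in 8. Of the 8 genes, 2 were lower past the threshold. This count was 1 without a filter on low values, 0 with eBayes without trend, 1 with the most abundant transcript of each gene, 4 with an unadjusted p, and 0 to 3 with 1 sample left out. None was higher, against 1 with an unadjusted p and 0 to 0 with 1 sample left out. Of the transcripts of these genes none passed, against 2 lower with a minimum mean of 1 FPKM, 6 lower and 1 higher with an unadjusted p, and 0 to 1 lower and 0 higher with 1 sample left out. For the other calcium genes, the 7 higher and 8 lower became 0 to 7 higher and 0 to 12 lower with 1 sample left out. Fewer samples leave fewer degrees of freedom, and the counts also differed with which sample was left out. The cause of the shifts was not tested.

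Relative to hair cell markers, a pseudocount of 1 gave 1.05 for Calb1, 0.71 for S100a1, 0.30 for S100b, 0.41 for Atp2b1 and 0.85 for Atp2b4, and the median of the markers gave 0.68 for S100a1, 0.26 for S100b and 0.37 for Atp2b1. Under both settings Atp2b2 turned from 0.16 to -0.028 and -0.086, Calb2 went to -0.59 and -0.63, and Atp2b3 to -0.21 and -0.34.

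Same-numbered samples had correlations of deviations from their group mean of 0.02, -0.04 and 0.01, and pairing by replicate number was not seen. The deviations were taken within groups of 3, so that these values cannot decide whether the numbers pair the samples. With a replicate block, 0 of the 8 genes were higher and 2 lower (Calb2, limma adjusted p = 0.0393, and Atp2b2, 0.0419), and of the other calcium genes 4 were higher and 4 lower. No young sample correlated best with the old sample of its own number. Of the old samples, only old replicate 1 correlated best with the young sample of its own number. With 3 samples per group and no counts behind the table, small shifts of the genes with few fragments, such as Calb1 and Atp2b4, cannot be resolved.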
